A study of Mus musculus with 8 samples.

Results

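Most of the 10 genes described here encode proteins that neutrophils store in their secondary and tertiary granules. The 10 are Ltf, Camp, Ngp, Lcn2, S100a8, S100a9, Mmp8, Mmp9, Fcnb and Cd177. They were taken as a named list of secondary and tertiary granule genes, with no measured value in the rule, and are 10 of 47069 gene rows in the deposited counts. RNA was sequenced from GFP-positive MLL-AF9 acute myeloid leukaemia cells sorted from leukaemic mice of the strain given as C57BL/7, with bone marrow as the tissue. All 8 libraries are labelled TetO-Klf4-AML, so the 0h libraries carry the doxycycline-inducible Klf4 transgene as well. They form 4 time points, 0h, 6h, 12h and 24h, of 2 libraries each, and the event that starts the clock is not in the labels. A doxycycline control lacking the transgene was not analysed here, so time, doxycycline and Klf4 cannot be told apart. Nothing in the labels says that the replicates came from separate mice, so p-values reflect only library-to-library spread, possibly of technical origin.

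Neutrophils make their granules in order as they mature. Primary granules, with myeloperoxidase and serine proteases, are filled in promyelocytes, and secondary and tertiary granules in myelocytes and later cells, under factors that include C/EBP epsilon. A cell that transcribes lactoferrin and cathelicidin is therefore usually later on the neutrophil path than one that transcribes only Mpo and Elane. The calprotectin genes S100a8 and S100a9 are abundant in neutrophils and monocytes, and most of their protein is cytosolic.

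Because the induced factor is a KLF and the late granule programme is linked to C/EBP factors, the 250 bases before the start site of each gene were searched for a C/EBP word, TTGCNNAA, a KLF word, GGGNGTGG, and a word of the myeloid factor PU.1, GAGGAAGT. Both strands were read. RefSeq's promoter table on GRCm38.p6, the assembly of mm10, holds 9 of the 10 genes, and Mmp9 is not among them. The C/EBP word stood in 6 of these 9 promoters and in 9.56% of all 32851 promoters in the table. The KLF word stood in 2 of the 9 and in 15.9% of all, and the PU.1 word in 2 of the 9 (S100a8 and Mmp8) and in 2.44% of all. The words were chosen after the sequences and the earlier results had been seen, and a match is a description of letters, not a binding site. Shown 5′ to 3′ on the gene's strand, with the word in capitals, are 1 match from each promoter with the C/EBP word, the match in the Camp promoter that reads as the KLF word on the opposite strand, and 1 of the 2 matches of Cd177 to the KLF word, both on the gene's own strand.
Ltf, 75 bases before the start, chr9:111019206-111019235, plus strand: aggcaggcctaTTGGGCAAtagggtggggc
Ngp, 138 bases before the start, chr9:110419659-110419688, plus strand: gtcctggtttaTTGCCCAAacctccttgcc
Lcn2, 216 bases before the start, chr2:32387937-32387966, minus strand: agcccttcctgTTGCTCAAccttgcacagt
S100a9, 236 bases before the start, chr3:90695939-90695968, minus strand: ggtaggctgtcTTGCTTAAgatttgggcgg
Mmp8, 19 bases before the start, chr9:7558399-7558428, plus strand: ttaggcagaagTTGCTCAAgatgtagcttt
Fcnb, 123 bases before the start, chr2:28084983-28085012, minus strand: ttttaggtctcTTGTGCAAccagaggcctc
Camp, 105 bases before the start, chr9:109849543-109849572, minus strand: cgctagcccccCCACACCCtggccggcagc
Cd177, 157 bases before the start, chr7:24760450-24760479, minus strand: acttttcagtgGGGGGTGGggtgggggtgg

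The matches of Ltf and Ngp hold the same 8 letters, TTGCCCAA, read on opposite strands. Those of Lcn2 and Mmp8 share TTGCTCAA, on the gene's own strand in both. In GENCODE M21 the windows of Lcn2 and Camp fall within an exon of a transcript that starts further upstream, and the other 6 windows lie upstream of the gene.

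Gene counts ran from 20394546 to 26041347 per library, and levels are given as CPM, the count relative to the library's total with TMM scaling. A count of 0 allows a level of up to 0.115 to 0.147 CPM, depending on the library, a limit set by 3 counts that covers counting error only. Klf4, the induced gene, had 2.71 and 4.42 CPM in the 0h libraries. It was highest at 6h (152 and 151 CPM) and lower at 12h (114 and 111 CPM) and 24h (76.8 and 78.7 CPM). The 6 genes used as a leukaemia check, Hoxa9, Hoxa10, Meis1, Ptprc, Kit and Cd34, were all detected, at a summed 1356 to 1500 CPM. They were not all stable. By the test described below, 3 were called lower at 24h against 0h and 1 higher. Cd34 fell from 243 to 116 CPM (log2 fold change -1.07 ± 0.04, SE), Meis1 by 0.24 ± 0.05 and Kit by 0.23 ± 0.05, while Hoxa9 rose by 0.12 ± 0.04. The mean share of fragments outside any gene feature was 5.47% at 0h and 9.15% at 24h, and its part in the results was not tested.

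Few late granule genes were called at 6h or 12h and most were called higher at 24h. At 24h against 0h, 8 of the 10 were called higher (Ltf, Mmp9, Camp, Ngp, S100a8, Lcn2, S100a9 and Cd177) and 1 was called lower (Mmp8). Fcnb did not pass the filter on low counts and was not tested in this fit. A call is an adjusted p under 0.05 in edgeR's quasi-likelihood test with Benjamini-Hochberg adjustment over all 14263 genes tested, of which 26.1% were higher and 24.8% lower by this rule at 24h. The 9 tested genes were detected throughout, with 12 or more counts in every library. Their median log2 fold change was 0.39, against 0.02 over all genes tested. At 6h against 0h, 0 were called in either direction by edgeR and 0 by DESeq2, where edgeR called 18.3% and DESeq2 11.7% of all genes, and 0 had an unadjusted p under 0.05. At 12h against 0h only Ltf was called, where 22.1% of all genes were called higher and 21.6% lower. From 12h to 24h, 6 genes were called higher (Mmp9, Ngp, S100a9, S100a8, Lcn2 and Ltf) and 0 lower, where 3.41% of all genes were called higher and 3.04% lower. Over the whole time course 7 of the 10 were called, against 52.8% of all genes. Mmp8 (adjusted p = 0.084) and Cd177 (adjusted p = 0.18) were tested and not called over the course. The comparisons with 0h share the 0h libraries, and the step from 12h to 24h shares the 24h libraries with them.

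With DESeq2 the calls at 24h against 0h were 6 higher and 0 lower, where 19.8% and 20.8% of all genes were. DESeq2 called 2 higher from 12h to 24h (1.47% of all genes), 0 at 12h against 0h (16.3%) and 0 from 6h to 12h (5.99%). Against a fold of 1.5 at 24h, edgeR called 1 gene higher and 0 lower, where 5.91% and 0.771% of all genes were. That test called 0 higher at 12h against 0h (4.06%) and 0 from 6h to 12h (0.589%). In the 8 genes called higher at 24h both libraries lay above both 0h libraries, as in 38.9% of all genes, and in Mmp8 both lay below, as in 36% of all genes.

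The 10 genes together stood at 114 and 123 CPM at 0h, 109 and 121 CPM at 6h, 128 and 121 CPM at 12h, and 162 and 161 CPM at 24h. Both 24h libraries lay above all 6 others, and the mean at 24h was 1.37 times that at 0h. Ngp, S100a8 and S100a9 made up 78.0% to 80.8% of this sum in every library. In bulk RNA a change in the share of cells that transcribe a gene and a change in the RNA per cell cannot be told apart.

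**Figure D1:**
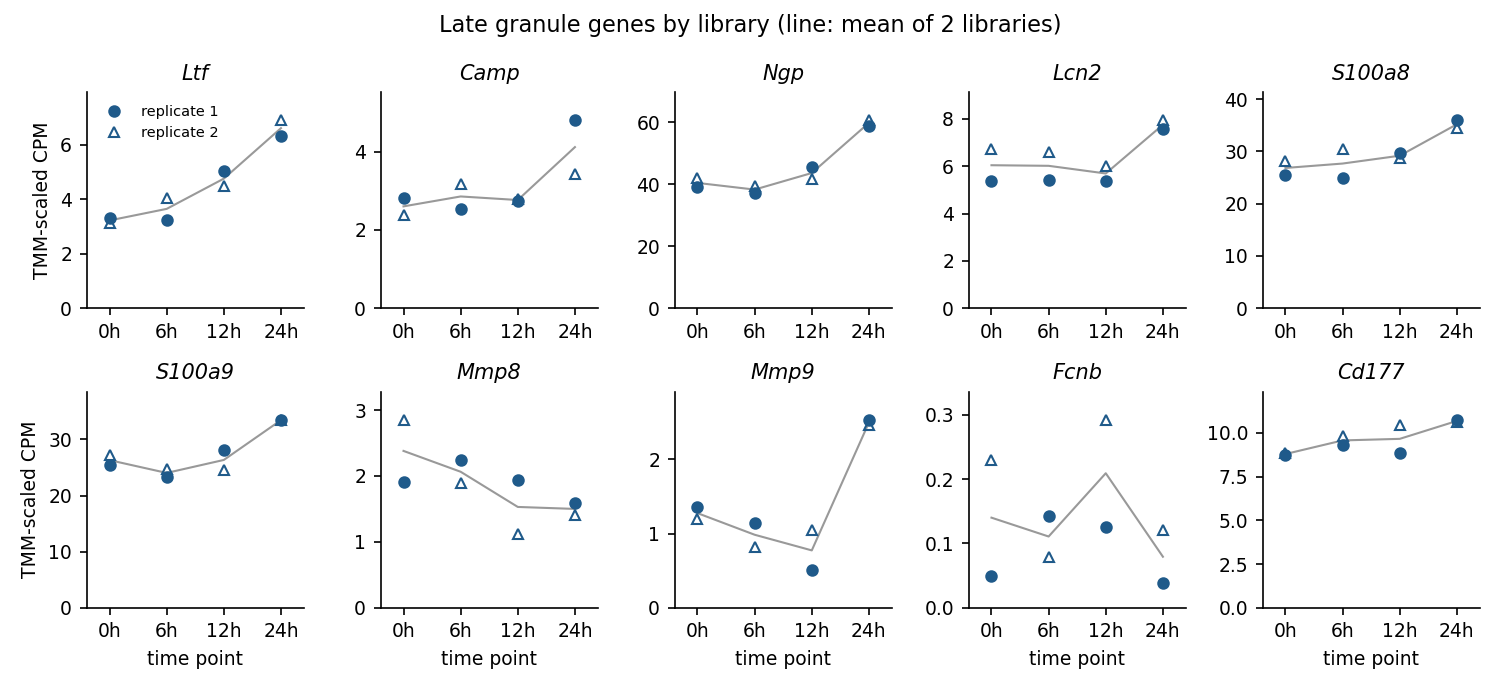
TMM-scaled CPM (vertical axis, from 0, a scale of its own in each panel) of the 10 late granule genes in each of the 8 libraries by time point; filled circles are replicate 1, open triangles replicate 2, and the line joins the means of 2 libraries. In 8 panels both 24h libraries lie above both 0h libraries, Mmp8 runs the other way and Fcnb stays under 0.3 CPM.

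Among the antimicrobial and iron-binding proteins of secondary granules, Ltf showed the largest rise at 24h. Ltf (ENSMUSG00000032496; mm10, chromosome 9, 111019271 to 111042767, plus strand) encodes lactoferrin, which withholds iron from bacteria. It stood at 3.31 and 3.13 CPM at 0h, 3.24 and 4.05 CPM at 6h, 5.04 and 4.47 CPM at 12h, and 6.32 and 6.90 CPM at 24h. The 12h libraries lay above the 0h and 6h libraries, and the 24h libraries above all of them. The log2 fold change against 0h was 0.19 ± 0.19 (SE) at 6h with adjusted p = 0.54, 0.56 ± 0.18 at 12h with adjusted p = 0.0093, and 1.04 ± 0.17 at 24h with adjusted p = 2.3e-06, a 2.05-fold rise. Ltf was the gene that passed the test against a fold of 1.5 at 24h. Its 12h call was lost without 0h replicate 2 (adjusted p = 0.073) or 12h replicate 1 (adjusted p = 0.083), and with DESeq2 (adjusted p = 0.053). The step from 12h to 24h (0.47 ± 0.15, adjusted p = 0.049) lay at the threshold, and its call was lost without any 1 of the libraries of 0h, 12h or 24h (adjusted p from 0.051 to 0.31), with DESeq2 (adjusted p = 0.28), and in edgeR with DESeq2's size factors or with library totals in place of TMM (adjusted p = 0.053 with each).

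Ngp (ENSMUSG00000032484; chromosome 9, 110419747 to 110423012, plus strand) encodes neutrophilic granule protein, a relative of the cathelicidins, and was the most abundant of the 10 in CPM. Its level was 39.0 and 41.9 CPM at 0h, 37.2 and 39.4 CPM at 6h, 45.6 and 41.7 CPM at 12h, and 59.0 and 60.7 CPM at 24h. The first 3 time points overlapped in part, and both 24h libraries lay well above them. Against 0h, Ngp differed by -0.08 ± 0.07 at 6h (adjusted p = 0.46) and 0.11 ± 0.06 at 12h (adjusted p = 0.17), and rose by 0.56 ± 0.06 at 24h (adjusted p = 1.0e-09), or 1.48-fold. From 12h to 24h the rise was 0.45 ± 0.06 (adjusted p = 1.1e-06). Ngp was also the only member called from 6h to 12h, at 0.19 with adjusted p = 0.032, where 10.9% of all genes were called higher. That call was lost without 6h replicate 1 (adjusted p = 0.17) or 12h replicate 1 (adjusted p = 0.35), without a filter on low counts (adjusted p = 0.053) and with DESeq2 (adjusted p = 0.11).

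Camp (ENSMUSG00000038357; chromosome 9, 109847379 to 109849617, minus strand) encodes the cathelicidin precursor of the antimicrobial peptide CRAMP. It stood at 2.81 and 2.39 CPM at 0h, 2.53 and 3.18 CPM at 6h, 2.73 and 2.80 CPM at 12h, and 4.80 and 3.43 CPM at 24h. The 24h libraries were the highest 2 of the 8, but far apart. The rise at 24h was 0.67 ± 0.20 on the log2 scale (adjusted p = 0.0061). Without 24h replicate 1 it was 0.40 (adjusted p = 0.20), and without 0h replicate 2 it was 0.55 (adjusted p = 0.083). From 12h to 24h the value was 0.58 ± 0.20, not called with all libraries (adjusted p = 0.070). It was called when either 6h library was left out (adjusted p = 0.046 and 0.045), when 24h replicate 2 was left out (adjusted p = 0.032) and without a filter on low counts (adjusted p = 0.042).

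Lcn2 (ENSMUSG00000026822; chromosome 2, 32384633 to 32388252, minus strand) encodes lipocalin 2, which binds bacterial siderophores. It stood at 5.37 and 6.72 CPM at 0h, 5.44 and 6.60 CPM at 6h, 5.38 and 6.01 CPM at 12h, and 7.57 and 7.95 CPM at 24h. The 6 earlier libraries lay between 5.37 and 6.72 CPM and the 24h libraries above them. The rise against 0h at 24h was 0.35 ± 0.14 (adjusted p = 0.036), and from 12h to 24h 0.44 ± 0.14 (adjusted p = 0.048). The 24h call was lost with DESeq2 (adjusted p = 0.15) and without any of 0h replicate 1 (0.20, adjusted p = 0.35), 24h replicate 1 (adjusted p = 0.065) or 24h replicate 2 (adjusted p = 0.14). The step from 12h was not called without any 1 of the 12h or 24h libraries (adjusted p from 0.098 to 0.30), with DESeq2 (adjusted p = 0.25), or in edgeR with DESeq2's size factors or library totals (adjusted p = 0.053 with each).

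The calprotectin genes rose together and by similar amounts at 24h. S100a8 (ENSMUSG00000056054; chromosome 3, 90668978 to 90670035, plus strand) and S100a9 (ENSMUSG00000056071; chromosome 3, 90692632 to 90695721, minus strand) are 22.6 kb apart with 0 protein-coding genes between them, and their proteins pair as calprotectin, which binds calcium, zinc and manganese. S100a8 stood at 25.6 and 28.1 CPM at 0h, 24.9 and 30.5 CPM at 6h, 29.6 and 28.7 CPM at 12h, and 35.97 and 34.4 CPM at 24h. S100a9 stood at 25.4 and 27.2 CPM at 0h, 23.3 and 24.7 CPM at 6h, 28.2 and 24.5 CPM at 12h, and 33.4 and 33.5 CPM at 24h. For both genes the 24h libraries were the highest 2 of the 8. Against 0h, S100a8 rose by 0.39 ± 0.08 (adjusted p = 6.6e-05) and S100a9 by 0.34 ± 0.07 (adjusted p = 0.00019).

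From 12h to 24h, S100a9 rose by 0.34 ± 0.07 (adjusted p = 0.0018) and S100a8 by 0.27 ± 0.07 (adjusted p = 0.021). The S100a8 step was not called when either 12h library (adjusted p = 0.11 and 0.19) or 24h replicate 1 (adjusted p = 0.13) was left out, nor with DESeq2 (adjusted p = 0.14), and the S100a9 step not without 12h replicate 2 (adjusted p = 0.14). The ratio of S100a8 to S100a9 counts lay between 1.01 and 1.23 in the 8 libraries. The highest ratio, in 6h replicate 2, had a 95% exact binomial counting interval of 1.11 to 1.37, and the lowest, in 0h replicate 1, one of 0.888 to 1.14. No order with time is seen in it, since the 24h ratios were 1.08 and 1.03.

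The matrix metalloproteases, which cut collagen and gelatin, differed from 0h in opposite directions at 24h. Mmp9 (ENSMUSG00000017737; chromosome 2, 164940780 to 164955850, plus strand) encodes gelatinase B, the defining enzyme of tertiary granules. It stood at 1.36 and 1.20 CPM at 0h, 1.14 and 0.826 CPM at 6h, 0.504 and 1.04 CPM at 12h, and 2.53 and 2.46 CPM at 24h. All 4 libraries of 6h and 12h lay below the 0h libraries, and both 24h libraries lay above them. The values against 0h were -0.39 ± 0.34 at 6h (adjusted p = 0.49) and -0.71 ± 0.35 at 12h (adjusted p = 0.10), neither of them called. Without 12h replicate 2, the 12h value was -1.33 (adjusted p = 0.026). At 24h Mmp9 was higher by 0.97 ± 0.28 (adjusted p = 0.0040), or 1.96-fold. That call was lost without 0h replicate 2 (adjusted p = 0.053).

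From 12h to 24h Mmp9 rose by 1.68 ± 0.30 (adjusted p = 0.00022), or 3.21-fold, and it was the only member to pass the test against a fold of 1.5 in that step, as 0.252% of all genes did upward. The counts behind it were 12 and 25 in the 12h libraries and 67 and 61 in those of 24h. Mmp8 (ENSMUSG00000005800; chromosome 9, 7558456 to 7568485, plus strand) encodes neutrophil collagenase, a secondary granule enzyme. It stood at 1.91 and 2.85 CPM at 0h, 2.24 and 1.89 CPM at 6h, 1.93 and 1.13 CPM at 12h, and 1.59 and 1.41 CPM at 24h. The 24h libraries lay below both 0h libraries, of which 0h replicate 2 was the highest of the 8. The difference at 24h was -0.67 ± 0.27 (adjusted p = 0.038), with a 95% interval of -1.22 to -0.12. Without 0h replicate 2 it was -0.35 (adjusted p = 0.46). The call was also lost without 24h replicate 1 or 24h replicate 2 (adjusted p = 0.065 and 0.14), with DESeq2 (adjusted p = 0.13) and with library totals in place of TMM (adjusted p = 0.064). At 12h Mmp8 differed from 0h by -0.65 ± 0.27 (adjusted p = 0.054). That value was called when 0h replicate 1 (-0.90, adjusted p = 0.020), 12h replicate 1 (-1.09, adjusted p = 0.013), either 6h library (adjusted p = 0.041 and 0.040) or 24h replicate 2 (adjusted p = 0.04999) was left out, and with no filter on low counts (adjusted p = 0.035).

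Cd177 (ENSMUSG00000052212; chromosome 7, 24743983 to 24760311, minus strand) encodes a GPI-anchored surface protein of neutrophils that is also held in secondary granules and binds proteinase 3. It stood at 8.74 and 8.83 CPM at 0h, 9.30 and 9.83 CPM at 6h, 8.87 and 10.4 CPM at 12h, and 10.7 and 10.6 CPM at 24h. Every later library lay above both 0h libraries, by small amounts. The rise at 24h was 0.28 ± 0.11 (adjusted p = 0.038), the smallest of the 8 rises. It was not called with DESeq2 (adjusted p = 0.16), without a filter on low counts (adjusted p = 0.069), or when any 1 library of 0h or of 24h was left out (adjusted p from 0.092 to 0.13). Fcnb (ENSMUSG00000026835; chromosome 2, 28076378 to 28084885, minus strand) encodes ficolin B, a lectin of the complement pathway. The 0h libraries had 1 and 5 counts of it, the 6h libraries 3 and 2, the 12h libraries 3 and 7, and the 24h libraries 1 and 3. Over both libraries its level was 0.144 CPM at 0h, with a 95% exact Poisson interval of 0.0529 to 0.314, and 0.0781 CPM at 24h, with 0.0213 to 0.200. The intervals overlap, which is not a test, and with so few counts no difference in Fcnb is read from them.

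**Figure D2:**
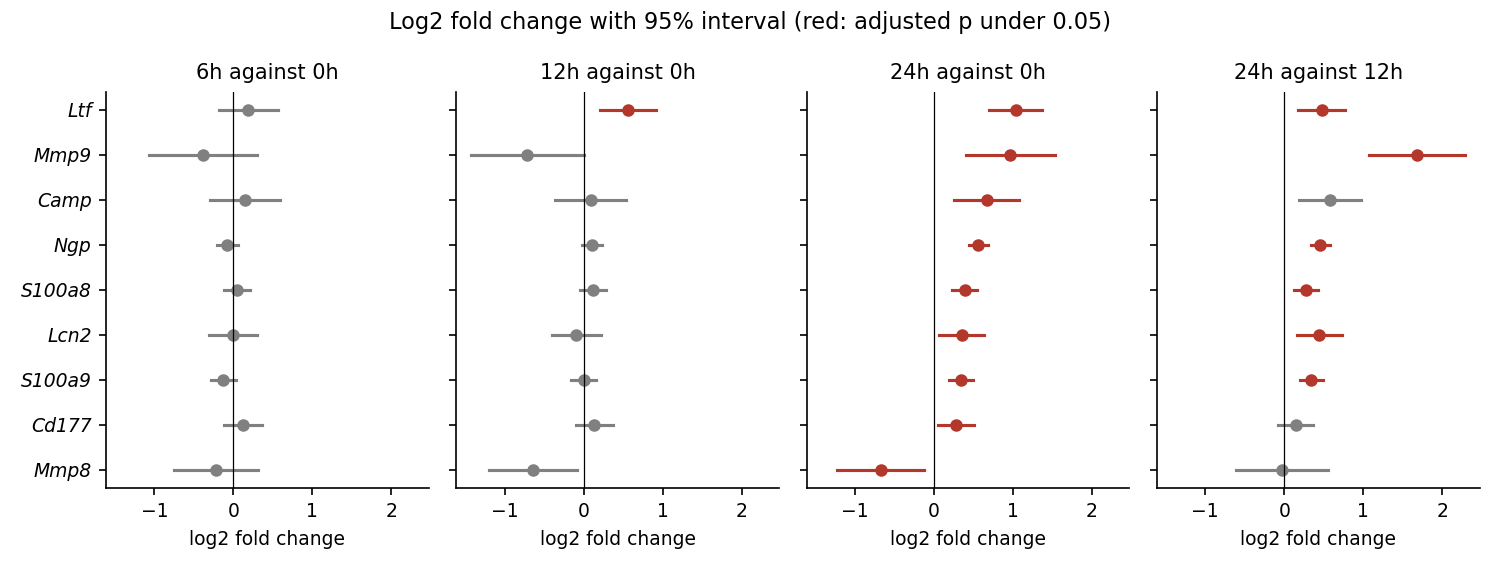
Log2 fold change (horizontal axis) of the 9 tested late granule genes at 6h, 12h and 24h against 0h and at 24h against 12h, from edgeR; points are estimates, bars 95% intervals, and red marks an adjusted p under 0.05. The intervals at 6h all include 0, while at 24h 8 genes lie above 0, from 0.28 for Cd177 to 1.04 for Ltf, and Mmp8 lies below at -0.67.

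Divided by the length of the annotated exons, the genes spanned a wide range of levels. At 0h S100a9 stood highest at 50.4 ± 2.41 CPM per kb (SD, n = 2), followed by S100a8 at 38.7 ± 2.60 and Ngp at 33.1 ± 1.70 CPM per kb. Camp (3.43 ± 0.39), Cd177 (3.09) and Lcn2 (2.30 ± 0.36) formed a middle group in CPM per kb. Mmp8 (0.98 ± 0.28), Ltf (0.93 ± 0.04), Mmp9 (0.36 ± 0.03) and Fcnb (0.105 ± 0.0950) were lowest in CPM per kb. Of neighbours in this order at 0h, Mmp8 and Ltf had overlapping ranges and the others did not. At 24h the order was S100a9 (64.0 CPM per kb), S100a8 (50.7) and Ngp (49.0), with the ranges of S100a8 and Ngp overlapping. Ltf, at 1.92 CPM per kb, lay above Mmp9 (0.71) and Mmp8 (0.62) at 24h, and neither range overlapped its own.

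**Figure D3:**
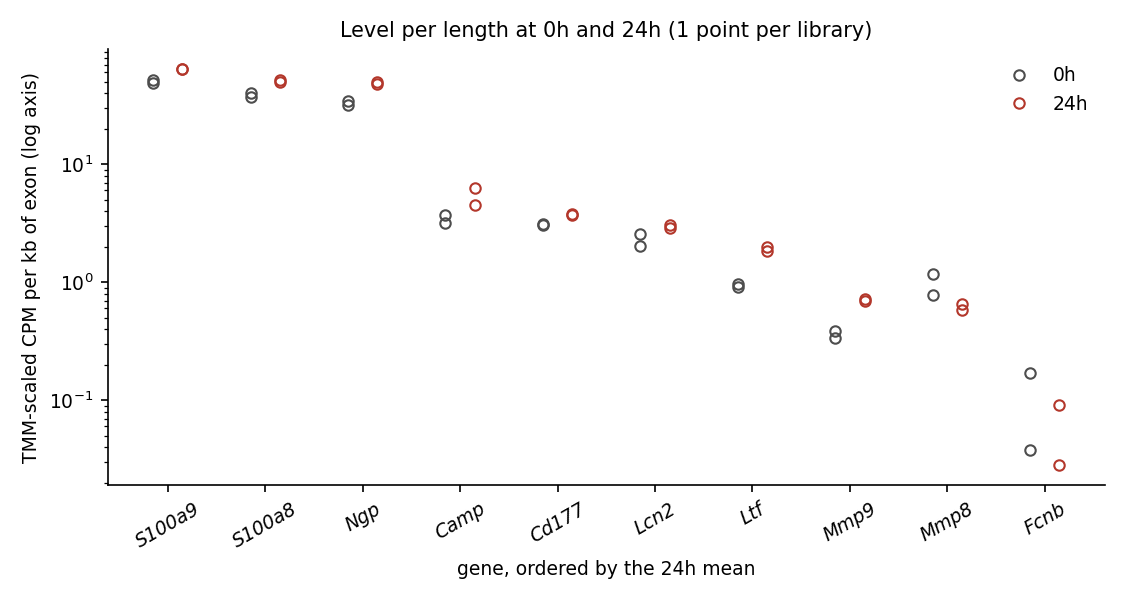
TMM-scaled CPM per kb of exon (log axis) of the 10 late granule genes in each 0h library (grey) and 24h library (red), in the order of the 24h means. S100a9, S100a8 and Ngp stand at 31.9 to 64.2 CPM per kb and the other genes at 6.34 or less.

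By Pearson's r of log2 CPM over the 8 libraries, Slc11a1 was the gene most like Ltf (r = 0.99), out of 8819 well expressed genes. Slc11a1 encodes a divalent metal transporter of phagocytes and was higher by 1.87 ± 0.12 on the log2 scale at 24h. For Ngp the most alike gene was Txnip (r = 0.99, 0.23 ± 0.06 at 24h), a thioredoxin inhibitor. For S100a8 it was S100a11 (r = 0.97, 0.35 ± 0.05 at 24h), another S100 gene, and for S100a9 the gene Sympk (r = 0.98, 0.07 ± 0.04). Mmp9 was most like Nbeal2 (r = 0.97), although Nbeal2 differed by only 0.05 ± 0.04 at 24h. Camp, Lcn2, Mmp8 and Cd177 were most like Myo10, Gtf3c1, Tamm41 and Fam118b, with r of 0.93, 0.96, 0.94 and 0.95. The next most alike genes were Uba3 for Ltf, Habp4 for Camp, Iqcg for Ngp, Atp13a1 for Lcn2, Rfng for S100a8, Hexim1 for S100a9, Galk2 for Mmp8, Mthfsd for Mmp9 and Znrf3 for Cd177, with r from 0.92 to 0.99. The 8 libraries are 4 pairs of replicates, so many genes that differ with time reach a high r.

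Other late granule and mature neutrophil genes were mixed. Of 39 listed, 35 were tested. At 24h against 0h the calls were 17 higher and 9 lower, with 9 genes not called and a median log2 fold change of 0.55. At 6h there were 4 higher and 5 lower, and at 12h 7 higher and 9 lower. The shares of all genes tested were 26.1% higher and 24.8% lower at 24h, and 22.1% and 21.6% at 12h. At 6h the share was 18.3% in either direction. Cybb, the heme subunit of the phagocyte NADPH oxidase, went from 2.42 ± 0.02 to 9.63 ± 0.08 CPM (SD, n = 2) at 24h. Padi4, which citrullinates histones in neutrophil extracellular traps, rose by 0.996 ± 0.05, and Slpi, an inhibitor of neutrophil elastase, fell by 0.997 ± 0.06. Pglyrp1, a peptidoglycan-binding protein of secondary granules named after its values were seen, rose by 0.58 ± 0.05.

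Primary granule genes were mostly called lower. Of 14 tested, 4 were called higher and 9 lower at 24h, with 1 in neither direction and a median of -0.32. Ms4a3, a gene of granulocyte and monocyte progenitors, fell by 0.99 ± 0.05, Cd63, a granule membrane tetraspanin, by 0.66 ± 0.04, Srgn, the proteoglycan serglycin, by 0.59 ± 0.04, and Prtn3, proteinase 3, by 0.50 ± 0.05. The 4 called higher, named after their values were seen, were Nkg7 (1.19 ± 0.13), the serine protease Prss57 (0.60 ± 0.08), myeloperoxidase Mpo (0.19 ± 0.07) and cathepsin C, Ctsc (0.14 ± 0.05). At 12h, 10 of the 14 were called lower and 1 higher. Of all genes tested, 24.8% were lower and 26.1% higher at 24h, and 21.6% lower and 22.1% higher at 12h.

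Of 15 transcription factors of granulocyte development, 7 were called higher and 3 lower at 24h, and 9 higher and 3 lower at 12h. Among all genes tested, 26.1% were higher and 24.8% lower at 24h, and 22.1% and 21.6% at 12h. Cebpb, a factor of emergency granulopoiesis, rose by 0.78 ± 0.06 at 24h and Cebpg by 0.65 ± 0.05, while Cebpd fell by 0.45 ± 0.06. Irf8, a monocyte factor, was higher than at 0h by 0.50 ± 0.06 at 12h and by 0.20 ± 0.06 at 24h. From 12h to 24h it fell by 0.31 ± 0.05 (adjusted p = 0.00014). Cebpe and Gfi1, which secondary granule formation depends on, were named after their values were seen. Against 63.1 CPM at 0h, Cebpe was called higher at 6h (0.17 ± 0.06, adjusted p = 0.037) and at 12h (0.22 ± 0.06, adjusted p = 0.0021). At 24h it was at 68.1 CPM, a difference of 0.11 ± 0.06 that was not called (adjusted p = 0.11). Gfi1 fell by 0.17 ± 0.04 at 24h (adjusted p = 0.0011).

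Of 16 genes that encode partners, receptors or inhibitors of the granule proteins, 12 were tested. At 24h 8 of them were called higher and 3 lower, where 26.1% and 24.8% of all genes were. Tlr4, a receptor of calprotectin, rose by 0.79 ± 0.08, and Lrp1, an endocytic receptor that takes up lactoferrin and MMP9, by 2.57 ± 0.09. Elane, neutrophil elastase, and Prtn3, the partner of CD177, fell by 0.30 ± 0.05 and 0.50 ± 0.05. The lists of primary granule genes and of partners share Elane and Prtn3.

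**Figure D4:**
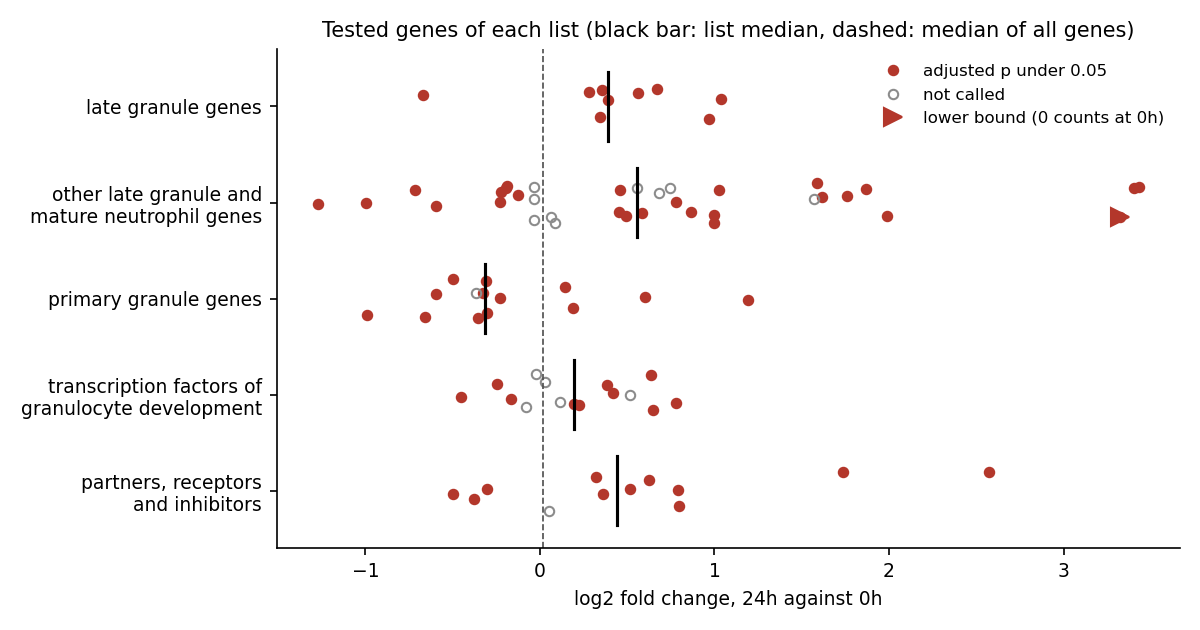
Log2 fold change at 24h against 0h (horizontal axis) of the tested genes in 5 lists. Each point is 1 gene, red where the adjusted p was under 0.05. Black bars are list medians, and the dashed line is the median of all genes tested (0.02). The triangle is Mmp25, which had 0 counts at 0h, set against a floor of 3 counts. Its label as a lower bound leaves out the counting error at 24h. The medians are 0.39 for the late granule genes, 0.55 for other late granule and mature neutrophil genes, and -0.32 for primary granule genes. They are 0.20 for the transcription factors and 0.44 for the partners, receptors and inhibitors.

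Markers of mature neutrophils outside the 10 genes were summed beside them, as cells the sort could hold. The 6 markers were Ly6g, Cxcr2, Retnlg, Stfa2l1, Mmp25 and Il1r2, and 5 of 6 had a count at 0h and 6 of 6 at 24h. Their summed level was 6.17 to 6.28 CPM at 0h, 8.01 to 9.16 CPM at 6h, 22.3 to 23.3 CPM at 12h and 42.0 to 43.1 CPM at 24h. Ly6g, the surface antigen that defines mouse neutrophils, made up most of the 24h sum, with 3.59 ± 0.32 CPM (SD, n = 2) at 0h and 38.9 ± 0.48 CPM at 24h, a rise of 3.43 ± 0.11 on the log2 scale. Cxcr2, a chemokine receptor of mature neutrophils, fell by 1.27 ± 0.37 (adjusted p = 0.0039). Retnlg, an abundant transcript of mature neutrophils, had 9 counts over all 8 libraries. Mmp25 had 0 counts at 0h and 37 at 24h, at least 10.03-fold higher against a floor of 3 counts over the 0h libraries, and Il1r2, a decoy receptor of interleukin 1, rose by 1.59 ± 0.49. The part of neutrophils in the 24h levels of the late granule genes was not tested.

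Of the markers of other lineages, Cd3e, Cd3g, Cd2 and Ncr1 of T and NK cells and Car1 of erythroid cells had 0 counts in every library. Of the B cell receptor subunits, Cd79a went from 0.215 to 0.821 CPM at 24h (1.90 ± 0.51, adjusted p = 0.0021) and Cd79b from 11.4 to 7.73 CPM (-0.56 ± 0.12, adjusted p = 0.00011). The T and NK list summed to 0.0378 to 0.167 CPM over all libraries, and the erythroid list to 2.21 to 2.48 CPM at 0h and 2.91 to 3.03 CPM at 24h. The 10 monocyte and macrophage markers, a cell type that also transcribes S100a8 and S100a9, summed to 152 to 154 CPM at 0h and 111 to 112 CPM at 24h. Of the 7 tested, 4 were called lower at 24h, among them Adgre1 (-0.70 ± 0.06), Ly86 (-0.82 ± 0.09) and Ccr2 (-0.26 ± 0.06). Another 2 were called higher, among them Fn1, which went from 0.0481 to 2.40 CPM. The shares of all genes were 24.8% lower and 26.1% higher.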

How the data were processed

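RNA was sequenced from the 8 libraries, grouped by the time point in their titles. The deposited values are raw counts per Ensembl gene, 1 file per library. The submitters' processing notes name HTSeq 2.0.3, SAMtools 1.3, STAR and mm10 for them. For the annotation release, the strand setting and the filters: not given in the sources used here. Each file held 47069 gene rows and 5 summary rows, which were left out. Fragments in no feature made up 5.25% to 9.27% of a library and ambiguous ones 5.00% to 5.50%. Symbols, coordinates and exon lengths came from GENCODE M21 (46574 IDs matched), in which no other gene overlaps any of the 10 genes. Genes were kept with filterByExpr, scaled by TMM and tested with edgeR 4.0.16 (R 4.3.3). A single quasi-likelihood fit of all 8 libraries had a mean per time point and 4 residual degrees of freedom. In that fit each gene's spread was drawn towards that of all genes, with a median of 32.1 prior degrees of freedom. The p-values and intervals therefore rest largely on spread shared over genes, not on each gene's own libraries alone. SEs were the log2 fold change over the square root of its F statistic, and intervals used the t distribution. Tests were two-sided. The pipeline was tested on simulated counts. Replicates differed by more than sampling noise (chi-square per degree of freedom 1.83 to 3.79).

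The 10 genes and the lists were chosen with earlier results of these data known. From each list the text names up to 4 tested genes with the smallest adjusted p over the time course, and for each tested late granule gene the 2 tested genes with the highest r among those with a mean log2 CPM of at least 3, predicted gene models left out. Any other gene named was chosen after its values were seen. Lists of eosinophil, mast cell and basophil, and megakaryocyte and platelet markers were summed as well: at 0h and 24h they came to 6.98 to 7.22 and 7.94 to 9.12 CPM, 132 to 133 and 103 to 106 CPM, and 13.4 and 7.94 to 9.04 CPM. The sum of a further marker list is not reported here. The alternatives were DESeq2 1.42.0, DESeq2 size factors, library totals, no filter, a filter at a mean log2 CPM of 1, the replicate number as a block, the 4 compared libraries alone, a test against a fold of 1.5, and leaving out each library.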

Additional observations from a re-analysis of the deposited data

How the results depend on the processing

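Over the 5 comparisons and all alternatives, 635 of the values of single late granule genes kept their side of the threshold, 62 lost a call, 12 gained one, and 0 called values changed sign. All 8 rises and the fall of Mmp8 at 24h kept their direction under every alternative that kept the gene. The 8 genes called higher at 24h against 0h became 5 to 8 when 1 library was left out (5 without 0h replicate 2 or 24h replicate 1), 6 with DESeq2 and 1 against a fold of 1.5. Ltf, Ngp, S100a8 and S100a9 were called at 24h whichever library was left out. The 1 gene called lower became 0 with library totals, DESeq2, the stricter filter (which removed Mmp8 and Mmp9) and the test against a fold of 1.5, and 0 to 1 with a library left out. At 12h against 0h the 1 gene called higher became 2 with library totals, 0 with DESeq2 and against a fold of 1.5, and 0 to 1 with a library left out, and the 0 called lower became 1 without a filter and 0 to 1 with a library left out. From 6h to 12h the 1 higher became 0 with DESeq2, without a filter and against a fold of 1.5, and 0 to 1 with a library left out. From 12h to 24h the 6 higher became 4 with DESeq2's size factors in edgeR and 4 with library totals (Ltf and Lcn2 lost in each), 2 with DESeq2, which gave no adjusted p for Mmp9, 1 against a fold of 1.5, and 2 to 7 with a library left out (3 without 12h replicate 1 or 24h replicate 1, 2 without 12h replicate 2). Over the time course 7 genes were called, where 52.8% of all genes were, and 5 to 8 with a library left out. The cause of these losses was not tested. Same-numbered libraries did not deviate together (correlations from -0.02 to 0.02), and with the replicate number as a block the counts at 24h were 8 and 1, and from 12h to 24h 5 higher, as Ltf was lost (adjusted p = 0.058). Fcnb did not pass the filter on low counts and was tested only in the fit without a filter.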
